A study of Homo sapiens with 6 samples.

Results

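The genes described here are YAP1 and WWTR1, the latter encoding TAZ, with their DNA-binding partners TEAD1 and TEAD4, the target genes CYR61, CTGF, AMOTL2 and ANKRD1, and the pathway components LATS2 and AJUBA. They are 10 of the 58174 genes in the table, listed by name, and all 10 passed the filter on low values. The samples were SiHa cells, an established human line of cervical squamous cell carcinoma, transfected by lipofection with a BRCA1 plasmid, GV230-BRCA1 (OV-BRCA1 group, n = 3), or with empty GV230 (NC group, n = 3), and their mRNA was sequenced after 48 h. Both groups were therefore transfected, and the labels give no untransfected group and no promoter for the plasmid. The study asked which transcripts change when BRCA1 is raised in these cells, and the values here answer it for the YAP/TAZ genes only.

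YAP and TAZ are transcriptional coactivators without a DNA-binding domain of their own, and they reach their target genes mainly through the TEAD transcription factors. In the Hippo pathway, the kinases LATS1 and LATS2 phosphorylate YAP and TAZ and keep them out of the nucleus, so that much of their regulation acts on the protein and is not seen in mRNA. CYR61, CTGF and ANKRD1 are the transcripts most often read as YAP/TAZ output, and AMOTL2 and LATS2 are targets that in turn restrain YAP and TAZ.

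TEAD factors bind a short element, searched here as GGAATG and as CATTCC for the other strand, letters that do not overlap one another. The search covered the 250 bases before the RefSeq start of each gene (GRCh38.p14), which held a window for 7 of the 10 genes. Of all 35116 such windows, 11.9% held the letters at least once, 0.94% at least 2 times and 0.0826% at least 3 times. They occurred 3 times before CTGF and 2 times before ANKRD1, and once in a window each of YAP1, AMOTL2 and AJUBA. No match was found in the windows of WWTR1 and LATS2. The stretches around the matches in the 3 target genes are shown because ANKRD1 changed in the comparison while CTGF and AMOTL2 did not pass, with the searched letters in capitals and positions counted back from the RefSeq start. For CTGF (CCN2) the whole window is given, chr6:131951373-131951622 on the minus strand, with matches beginning at -169, -104 and -95. For ANKRD1 the stretches are chr10:90921290-90921319 and chr10:90921198-90921227 on the minus strand, with matches at -220 and -128. In GENCODE 29 the ANKRD1 gene begins 189 bases further upstream, and the second stretch lies inside the first exon there (chr10:90921001-90921276). For AMOTL2 the stretch is chr3:134374499-134374528 on the minus strand, with the match at -69 from the start of the coding transcript AMOTL2-202.
CTGF: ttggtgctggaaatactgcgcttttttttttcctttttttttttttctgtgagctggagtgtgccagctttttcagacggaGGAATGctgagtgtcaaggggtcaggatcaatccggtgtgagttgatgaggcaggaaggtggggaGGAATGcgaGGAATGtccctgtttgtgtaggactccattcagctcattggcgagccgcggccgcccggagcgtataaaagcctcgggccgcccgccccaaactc
ANKRD1, first stretch: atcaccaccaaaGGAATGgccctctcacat
ANKRD1, second stretch: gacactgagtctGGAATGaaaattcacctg
AMOTL2: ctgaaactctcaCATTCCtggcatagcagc
A match describes letters only, and binding was not measured.

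The values are FPKM, fragments of a transcript scaled to its length and to the mapped fragments of the sample, summed over the transcripts of a gene, so that levels of different genes are compared per length. A log2 fold change is the difference, OV-BRCA1 minus NC, of the mean log2(FPKM + 1). Depth, read from the step between low FPKM values of 14216 single-transcript genes, came to an estimated 13.9 to 16.4 M fragments in the OV-BRCA1 samples and 15.8 to 19.3 M in the NC samples. Only 30.5% to 36.4% of the low values lay within 0.1 of a whole fragment, so the counts themselves could not be recovered. BRCA1 was 35.7, 40.8 and 34.9 FPKM in the OV-BRCA1 samples and 20.1, 14.9 and 21.7 FPKM in the NC samples, a log2 fold change of 0.95 (limma, Benjamini-Hochberg adjusted p = 0.00373), and GAPDH did not pass (0.03, adjusted p = 0.586). The cell line carried KRT8, KRT17, KRT18 and SFN, while KRT5, KRT19 and TP63 did not pass the filter. Of a list of 10 epithelial markers 7 were tested, with a median log2 fold change of 0.27. Of these, 4 rose (KRT6A, KRT8, KRT18 and EPCAM), 1 fell (KRT17), and SFN and CDH1 did not pass. Over all genes 16.4% rose and 18.9% fell. KRT6A, one of the 4, was below 0.5 FPKM in all NC samples and entered the test through the OV-BRCA1 group alone. EPCAM went from 2.11, 3.01 and 2.65 FPKM in NC to 6.79, 7.65 and 5.93 FPKM in OV-BRCA1 samples (1.12, adjusted p = 0.00142 by limma). CDH1 was below 1 FPKM in all samples. The count describes this list, and squamous identity was not tested. The summed level of the list was nonetheless lower, 1717 to 1861 FPKM in OV-BRCA1 against 2066 to 2111 FPKM in NC samples. This came from KRT17, the most abundant, which went from 1425 to 1442 FPKM in NC to 953 to 1131 FPKM in OV-BRCA1 samples. None of 6 fibroblast markers passed the filter, and their sum stayed at or below 0.468 FPKM. Of 6 leukocyte markers, CD14 and CD68 passed the filter and moved in opposite directions, CD14 falling from 17.8 to 20.4 FPKM in NC to 6.65 to 9.04 FPKM in OV-BRCA1 samples (adjusted p = 0.000594) and CD68 rising from 2.74 to 4.17 FPKM to 22.2 to 29.4 FPKM (adjusted p = 9.75e-05). The sum of all 6 was 31.5 to 37.2 FPKM in OV-BRCA1 and 22.2 to 24.1 FPKM in NC samples, and PTPRC, which defines leukocytes, was at 0 in all 6 samples.

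Of the 10 genes, 3 rose in the OV-BRCA1 group (WWTR1, ANKRD1 and LATS2), none fell and 7 did not pass limma's test at an adjusted p below 0.05. At an unadjusted p below 0.05, 3 were higher and 0 lower. The share of all genes at that threshold is not given here, so this count has no background to be set against. In bulk RNA such as this, a change in every cell and a change in the number of cells that express a gene, or that took up the plasmid, cannot be told apart. Across all 16321 genes tested, 35.3% passed, of which the higher made up 16.4% and the lower 18.9% of the genes tested. Over the 10 genes the median log2 fold change was 0.16, and over all genes it was -0.04. ANKRD1 was the one that also met the study's DEG criterion of an absolute log2 fold change above 1, which 3.99% of all genes met, 2.89% higher and 1.1% lower. In 6 of the 10 genes the groups did not overlap, against 50.8% of all genes. OV-BRCA1 lay above NC in 5 of them and below in 1, against 23.4% and 27.4% of all genes. The share of the 10 genes that passed was thus close to that of all genes, and the description below turns on which of them moved.

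**Figure D1:**
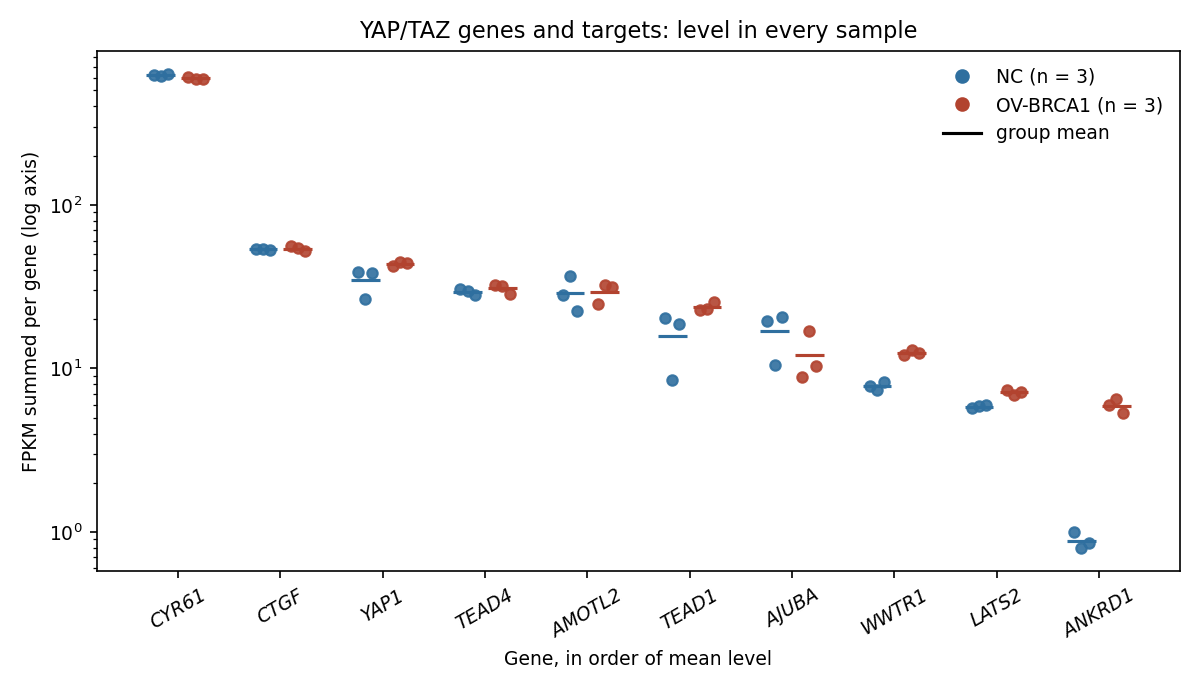
FPKM of the 10 genes in every sample on a log axis, ordered by mean level, with NC samples in blue, OV-BRCA1 samples in red and short lines for the group means (n = 3 each). CYR61 lies between 591 and 627 FPKM in all samples, ANKRD1 separates from at most 1.0 FPKM in NC to at least 5.34 FPKM in OV-BRCA1, and NC replicate 2 lies below the other NC samples for YAP1 and TEAD1.

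By level, CYR61 stood far above the other genes, at the 99.6 percentile of the genes tested, and CTGF came next at the 91.8 percentile. CYR61 exceeded CTGF, and CTGF exceeded YAP1, in every sample. YAP1, TEAD4 and AMOTL2 followed, and neighbours in that order changed places between samples. AMOTL2 lay above TEAD1 in every sample, and TEAD1 lay above WWTR1 in every sample, whereas AJUBA changed places with both. WWTR1 exceeded LATS2, and LATS2 exceeded ANKRD1, in every sample. The OV-BRCA1 samples had YAP1 to WWTR1 ratios of 3.51, 3.45 and 3.53, and the NC samples 4.98, 3.59 and 4.62. The lowest NC ratio, in replicate 2, lay just above the highest OV-BRCA1 ratio, and the exact two-sided permutation test gave p = 0.1, the smallest that 3 samples against 3 allow.

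WWTR1 (chr3:149517235-149736714, minus strand, hg38) measured 12.0, 13.0 and 12.4 FPKM in the OV-BRCA1 samples and 7.77, 7.36 and 8.31 FPKM in the NC samples. Each OV-BRCA1 sample lay above each NC sample, and the spread within a group was small against the distance between them. The means were 12.5 ± 0.471 and 7.81 ± 0.474 FPKM (SD, n = 3), 1.6 times as high in OV-BRCA1, with a log2 fold change of 0.61 (SE 0.07, 95% interval 0.44 to 0.78, adjusted p = 0.00131 by limma with Benjamini-Hochberg adjustment). Of its 12 annotated transcripts, the protein-coding WWTR1-203, of 5030 bases, held the most, 65.1% of the gene. WWTR1-203 rose from 5.37, 5.33 and 4.51 FPKM in NC to 8.06, 8.22 and 8.17 FPKM in OV-BRCA1, a log2 fold change of 0.60 (adjusted p = 0.0427 over 50925 transcripts), whereas WWTR1-201, with 20.3% of the gene, overlapped between the groups and did not pass (0.33, adjusted p = 0.605). Among those transcripts 5.47% passed.

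YAP1 (chr11:102110461-102233423, plus strand) measured 42.2, 44.7 and 43.9 FPKM in the OV-BRCA1 samples and 38.7, 26.5 and 38.4 FPKM in the NC samples. The groups did not overlap, and NC replicate 2 was well below the other 5 samples. The means were 43.6 ± 1.29 and 34.5 ± 6.98 FPKM (SD, n = 3), and the log2 fold change of 0.35 did not pass (SE 0.15, 95% interval -0.01 to 0.70, adjusted p = 0.113). Without NC replicate 2 it was 0.17 (adjusted p = 0.075). The transcripts that made up the sum differed between the groups.

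YAP1 has 11 annotated transcripts, of which 10 were tested and 2 passed, in opposite directions. YAP1-206, annotated as a processed transcript of 1025 bases with 3 exons, measured 11.8, 15.3 and 18.4 FPKM in the OV-BRCA1 samples and 0.236, 0.27 and 0.438 FPKM in the NC samples. YAP1-207, annotated as protein coding with 1415 bases and 6 exons, measured 0.0196, 0.0298 and 0.0271 FPKM in the OV-BRCA1 samples and 11.4, 14.2 and 16.0 FPKM in the NC samples. Thus each was near 0 in the group where the other was high, in every sample. The log2 fold changes were 3.60 for YAP1-206 (SE 0.19, adjusted p = 0.000885) and -3.85 for YAP1-207 (SE 0.16, adjusted p = 0.000431), by limma over all transcripts. Each of the pair passed the filter of 0.5 FPKM in 3 samples only through the group where it is high. Being below 0.5 FPKM in the other group, neither could have been tested without a difference.

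The pair share sequence at the 3′ end of the gene. Both contain the exon chr11:102227469-102227581 and the beginning of the last exon at base 102229702, in which YAP1-206 ends at base 102230502 and YAP1-207 at base 102230579. Upstream of these, YAP1-206 has an exon at chr11:102226973-102227083 that YAP1-207 lacks, and YAP1-207 begins at base 102186081. Their sum was 11.8, 15.3 and 18.5 FPKM in OV-BRCA1 and 11.7, 14.5 and 16.4 FPKM in NC samples, which overlapped (exact two-sided permutation p = 0.7). With 3 samples a group this test cannot go below 0.1, and how the quantification divided fragments between transcripts that share exons was not tested. Among the 199167 transcripts in the table, 11 were at or above 10 FPKM in all OV-BRCA1 samples and below 0.5 FPKM in all NC samples. The opposite pattern was seen in 7, and 3 genes, YAP1 among them, held transcripts of both kinds.

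The YAP1 transcripts above 5000 bases, which hold the long last exon, summed to 25.5, 23.5 and 21.1 FPKM in OV-BRCA1 and to 22.9, 7.36 and 17.3 FPKM in NC samples. The groups overlapped and NC replicate 2 was again the lowest (exact two-sided permutation p = 0.2). Within these, 3 protein-coding transcripts exceeded 10% of the gene, YAP1-202, YAP1-210 and YAP1-201, and each varied widely inside a group. YAP1-202, of 5284 bases, ranged from 1.7 to 15.2 FPKM within the OV-BRCA1 group alone. With protein-coding transcripts only, which leaves out YAP1-206 and keeps YAP1-207, the YAP1 log2 fold change was -0.25 (adjusted p = 0.293). With both YAP1-206 and YAP1-207 left out, YAP1 measured 30.4, 29.4 and 25.5 FPKM in OV-BRCA1 and 27.1, 12.0 and 21.9 FPKM in NC samples, which overlapped, so the sign of the difference varied with the transcripts counted.

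**Figure D2:**
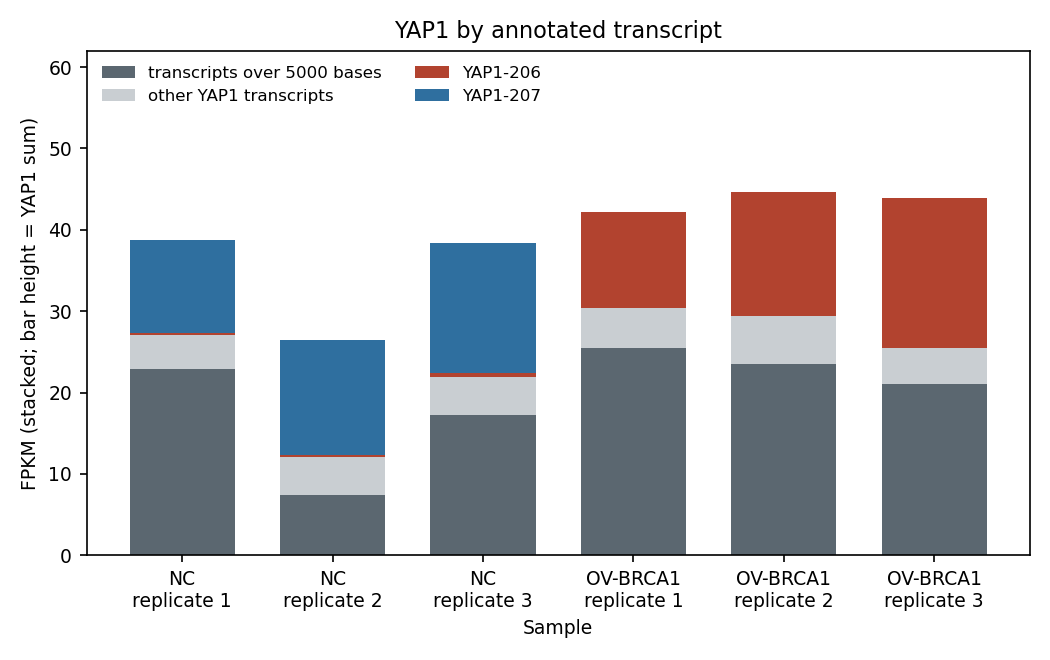
FPKM of YAP1 in each sample as stacked bars whose height is the gene sum, with transcripts over 5000 bases in dark grey, YAP1-206 in red, YAP1-207 in blue and all other YAP1 transcripts in light grey. The blue part of 11.4 to 16.0 FPKM in NC samples is replaced by a red part of 11.8 to 18.4 FPKM in OV-BRCA1 samples, and the dark part is lowest in NC replicate 2.

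TEAD1 (chr11:12674591-12944483, plus strand) measured 22.7, 23.2 and 25.4 FPKM in the OV-BRCA1 samples and 20.2, 8.48 and 18.7 FPKM in the NC samples. As for YAP1, the groups were separate and NC replicate 2 lay apart. The log2 fold change of 0.65 did not pass (SE 0.30, 95% interval -0.08 to 1.37, adjusted p = 0.144), and without NC replicate 2 it was 0.28 (adjusted p = 0.0544). Relative to the mean of the other NC samples, TEAD1 in NC replicate 2 was at the 0.381 percentile of all genes tested and YAP1 at the 2.8 percentile. Genes whose main transcript exceeds 5000 bases (2424 genes) had a median log2 ratio of -0.01 in that sample, a value looked at after the low TEAD1 and YAP1 values were seen, and the part of transcript length in them was not tested. The low value sat in TEAD1-203, the 8477-base transcript that held 89.0% of the gene, at 6.62 FPKM in NC replicate 2 against 17.8 and 17.0 FPKM in the other NC samples.

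TEAD4 (chr12:2959330-3040673, plus strand) measured 32.5, 32.0 and 28.5 FPKM in the OV-BRCA1 samples and 30.4, 29.7 and 28.1 FPKM in the NC samples. The groups overlapped, and the log2 fold change of 0.07 did not pass (SE 0.07, 95% interval -0.09 to 0.24, adjusted p = 0.455). Its main transcripts TEAD4-201, TEAD4-202 and TEAD4-207, with 52.6%, 16.2% and 15.3% of the gene, overlapped between the groups and did not pass (adjusted p = 0.945, 0.837 and 0.929). The related factors TEAD2 and TEAD3 did not pass either, at log2 fold changes of 0.22 (adjusted p = 0.0947) and -0.05 (adjusted p = 0.755). TEAD2 passed with protein-coding transcripts only (0.25, adjusted p = 0.038), and its most abundant transcript alone gave -0.70 (adjusted p = 0.383). VGLL proteins compete with YAP and TAZ for TEAD, and of these VGLL3 rose from 0.869, 1.63 and 1.56 FPKM to 2.64, 2.51 and 2.46 FPKM (log2 fold change 0.61, adjusted p = 0.0213), whereas VGLL4 did not pass (0.21, adjusted p = 0.169). The VGLL3 call was lost without any one of the OV-BRCA1 samples (adjusted p = 0.0553 to 0.0629) and with no filter (adjusted p = 0.0646), at log2 fold changes of 0.58 to 0.62. It was also lost with larger log2 fold changes, 0.85 with the most abundant transcript (adjusted p = 0.191) and 1.68 with values weighted by transcript length (adjusted p = 0.168), and VGLL3 was not tested when at least 1 FPKM was required in all samples. VGLL1 and VGLL2 were listed at 0 in every sample, so 1 of 6 tested genes of the TEAD and VGLL list rose, 0 fell by limma, and the median was 0.21. Over all genes 16.4% rose and 18.9% fell at the same adjusted threshold. At an unadjusted p below 0.05, 0 of the list were lower, and TEAD2 was also higher, with a 95% interval of 0.01 to 0.42 and groups that did not overlap. The share of all genes at the unadjusted threshold is not given here.

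ANKRD1 (chr10:90912096-90921276, minus strand), which encodes a nuclear and sarcomeric ankyrin repeat protein, showed the largest difference of the 10 genes. It measured 5.99, 6.46 and 5.34 FPKM in the OV-BRCA1 samples and 1.0, 0.804 and 0.851 FPKM in the NC samples. The lowest OV-BRCA1 sample exceeded the highest NC sample several times over. The means were 5.93 ± 0.564 and 0.886 ± 0.103 FPKM (SD, n = 3), 6.7 times as high in OV-BRCA1, and the log2 fold change was 1.88 (SE 0.10, 95% interval 1.64 to 2.11, adjusted p = 5.81e-05 by limma). Because the NC level is below the added 1 FPKM, this scale understates the difference, and with 0.1 FPKM added the log2 fold change was 2.61. At the estimated depths the values correspond to 147 to 210 fragments in OV-BRCA1 and 30 to 32 in NC samples. ANKRD1 has a single annotated transcript, so no division between transcripts enters its value. Its mean level was at the 35.0 percentile of the genes tested, the lowest of the 10.

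CTGF (chr6:131948176-131951373, minus strand), a secreted matricellular protein, measured 55.8, 54.2 and 52.1 FPKM in the OV-BRCA1 samples and 53.4, 53.7 and 53.2 FPKM in the NC samples. The groups overlapped. The log2 fold change was 0.01 (SE 0.05, 95% interval -0.10 to 0.13, adjusted p = 0.83), and with nuclear protein-coding genes as the basis of scaling it was -0.02. CTGF also has 1 annotated transcript, and the antisense gene AL133346.1 that overlaps it was at 0.252 to 0.9 FPKM. The ratio of ANKRD1 to CTGF, which shares the sample's scaling, was 0.107, 0.119 and 0.103 in OV-BRCA1 and 0.0187, 0.015 and 0.016 in NC samples, 6.62 times as high on average (exact two-sided permutation p = 0.1, the smallest possible).

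CYR61 (chr1:85580761-85583962, plus strand), a secreted protein of the same CCN family as CTGF, measured 602, 591 and 591 FPKM in the OV-BRCA1 samples and 624, 615 and 627 FPKM in the NC samples. All 3 OV-BRCA1 samples lay below all NC samples, at a mean of 594 ± 6.26 against 622 ± 6.30 FPKM (SD, n = 3). The log2 fold change of -0.07 did not pass (SE 0.03, 95% interval -0.15 to 0.02, adjusted p = 0.18). With samples scaled instead to their nuclear protein-coding total it was -0.11 and passed (adjusted p = 0.0449). With samples rescaled by the median ratio of their genes it shrank to -0.03 (adjusted p = 0.542), and with values weighted by transcript length to -0.04 (adjusted p = 0.255). CYR61 exceeded CTGF by a factor of 10.8, 10.9 and 11.3 in OV-BRCA1 and of 11.7, 11.5 and 11.8 in NC samples (exact two-sided permutation p = 0.1).

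The difference in CYR61 was uneven over its 2 transcripts. The full-length CYR61-201, with 96.3% of the gene, measured 588, 574 and 578 FPKM in OV-BRCA1 and 595, 585 and 595 FPKM in NC samples and did not pass (log2 fold change -0.03, adjusted p = 0.598). CYR61-202, a processed transcript of 551 bases that begins at base 85581200 inside the first intron of CYR61-201, measured 13.4, 17.0 and 12.7 FPKM in OV-BRCA1 and 28.9, 30.4 and 32.5 FPKM in NC samples. It was lower in every OV-BRCA1 sample and fell by 1.05 on the log2 scale (SE 0.13, adjusted p = 0.0131). Its share of the gene was 2.22%, 2.88% and 2.16% in OV-BRCA1 and 4.64%, 4.95% and 5.18% in NC samples. CYR61-202 holds under 10% of the gene and was named after its values were seen.

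AMOTL2 (chr3:134355874-134375479, minus strand), an angiomotin family protein that binds YAP, measured 24.7, 32.3 and 31.4 FPKM in the OV-BRCA1 samples and 28.1, 36.5 and 22.4 FPKM in the NC samples. The groups overlapped widely, and the log2 fold change was 0.04 (SE 0.19, 95% interval -0.41 to 0.49, adjusted p = 0.887). Over all samples, the retained-intron transcript AMOTL2-207 made up 54.0% of the gene. It held 35.4%, 52.8% and 50.8% of the gene in OV-BRCA1 and 57.8%, 70.5% and 48.7% in NC samples (exact two-sided permutation p = 0.3). The protein-coding AMOTL2-202 measured 12.5, 12.3 and 12.8 FPKM in OV-BRCA1 and 9.66, 8.41 and 9.61 FPKM in NC samples, without overlap (log2 fold change 0.41, adjusted p = 0.0807 over all transcripts). Of 4 AMOTL2 transcripts tested 1 passed, AMOTL2-210 (log2 fold change 0.77, adjusted p = 0.0461), which held 1.62% of the gene, entered the test through the OV-BRCA1 group alone and was named after its values were seen. Summed over protein-coding transcripts only, AMOTL2 passed, at a log2 fold change of 0.35 (adjusted p = 0.0077). That sum leaves out all noncoding AMOTL2 transcripts, among them AMOTL2-207, and the removal of AMOTL2-207 alone was not tested.

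LATS2 (chr13:20973032-21061547, minus strand), the kinase that phosphorylates YAP and TAZ and is itself a YAP/TAZ target, measured 7.41, 6.92 and 7.17 FPKM in the OV-BRCA1 samples and 5.69, 5.86 and 5.95 FPKM in the NC samples. The groups were separate, with means of 7.17 ± 0.246 and 5.83 ± 0.129 FPKM (SD, n = 3). The log2 fold change was 0.26 (SE 0.07, 95% interval 0.10 to 0.42, adjusted p = 0.026). The call was lost when any one sample other than OV-BRCA1 replicate 2 was left out (adjusted p = 0.0599 to 0.0763), with log2 fold changes of 0.24 to 0.28 over all such fits. LATS2-201, with 97.2% of the gene, measured 7.04, 6.92 and 6.88 FPKM in OV-BRCA1 and 5.69, 5.63 and 5.73 FPKM in NC samples, again without overlap, but did not pass over all transcripts (log2 fold change 0.25, adjusted p = 0.211). The paralog LATS1, at 5.41, 5.49 and 5.81 FPKM in OV-BRCA1 and 4.71, 4.52 and 4.75 FPKM in NC samples, did not pass at a log2 fold change of 0.21 (adjusted p = 0.055). LATS1 passed when at least 1 FPKM was required in all samples (adjusted p = 0.0443), with samples rescaled by the median ratio of their genes (adjusted p = 0.0348) and with values weighted by transcript length (adjusted p = 0.0235). It passed in no other alternative. Among these were the omission of any one sample (adjusted p = 0.0894 to 0.138), the nuclear protein-coding total (adjusted p = 0.0907) and the most abundant transcript (adjusted p = 0.208).

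AJUBA (chr14:22971174-22982642, minus strand), a LIM protein that binds and inhibits LATS kinases, measured 8.83, 16.9 and 10.4 FPKM in the OV-BRCA1 samples and 19.6, 10.5 and 20.7 FPKM in the NC samples. OV-BRCA1 replicate 2 was high and NC replicate 2 low within its group, so that the groups overlapped, and the log2 fold change of -0.45 did not pass (SE 0.32, 95% interval -1.22 to 0.31, adjusted p = 0.311). Single samples moved it, to -0.70 and -0.75 without replicate 2 of OV-BRCA1 or of NC and to -0.27 and -0.29 without OV-BRCA1 replicate 1 or NC replicate 3, and it passed in none of these (adjusted p = 0.087 to 0.592). AJUBA overlaps the protein-coding gene AL132780.3 on the same strand, which was listed at 14.5, 0 and 16.8 FPKM in NC samples and at 0 in all OV-BRCA1 samples. The main AJUBA transcript, AJUBA-201 with 56.9% of the gene, followed the same split, at 4.41, 10.9 and 3.7 FPKM in OV-BRCA1 and 12.9, 4.11 and 13.5 FPKM in NC samples. AJUBA-203, with 10.4% of the gene, was high and low in the same samples, at 0.021, 3.43 and 0.15 FPKM in OV-BRCA1 and 2.54, 0.0608 and 2.86 FPKM in NC samples. AJUBA-207, a retained-intron transcript with 13.5% of the gene, did not follow this split, at 2.13, 0.723 and 1.38 FPKM in OV-BRCA1 and 2.47, 2.76 and 2.27 FPKM in NC samples, with OV-BRCA1 replicate 2 lowest, NC replicate 2 highest and no overlap between the groups (log2 fold change -0.58, adjusted p = 0.25 over all transcripts). None of the 5 AJUBA transcripts tested passed. AL132780.3 was detected in the same NC samples in which AJUBA was high. Together the 2 genes measured 8.83, 16.9 and 10.4 FPKM in OV-BRCA1 and 34.1, 10.5 and 37.6 FPKM in NC samples, 0.44 times as high in OV-BRCA1 against 0.71 times for AJUBA alone, with overlapping groups (exact two-sided permutation p = 0.2). The AJUBA value is therefore uncertain to the extent that fragments of the shared part can be assigned to either gene.

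**Figure D3:**
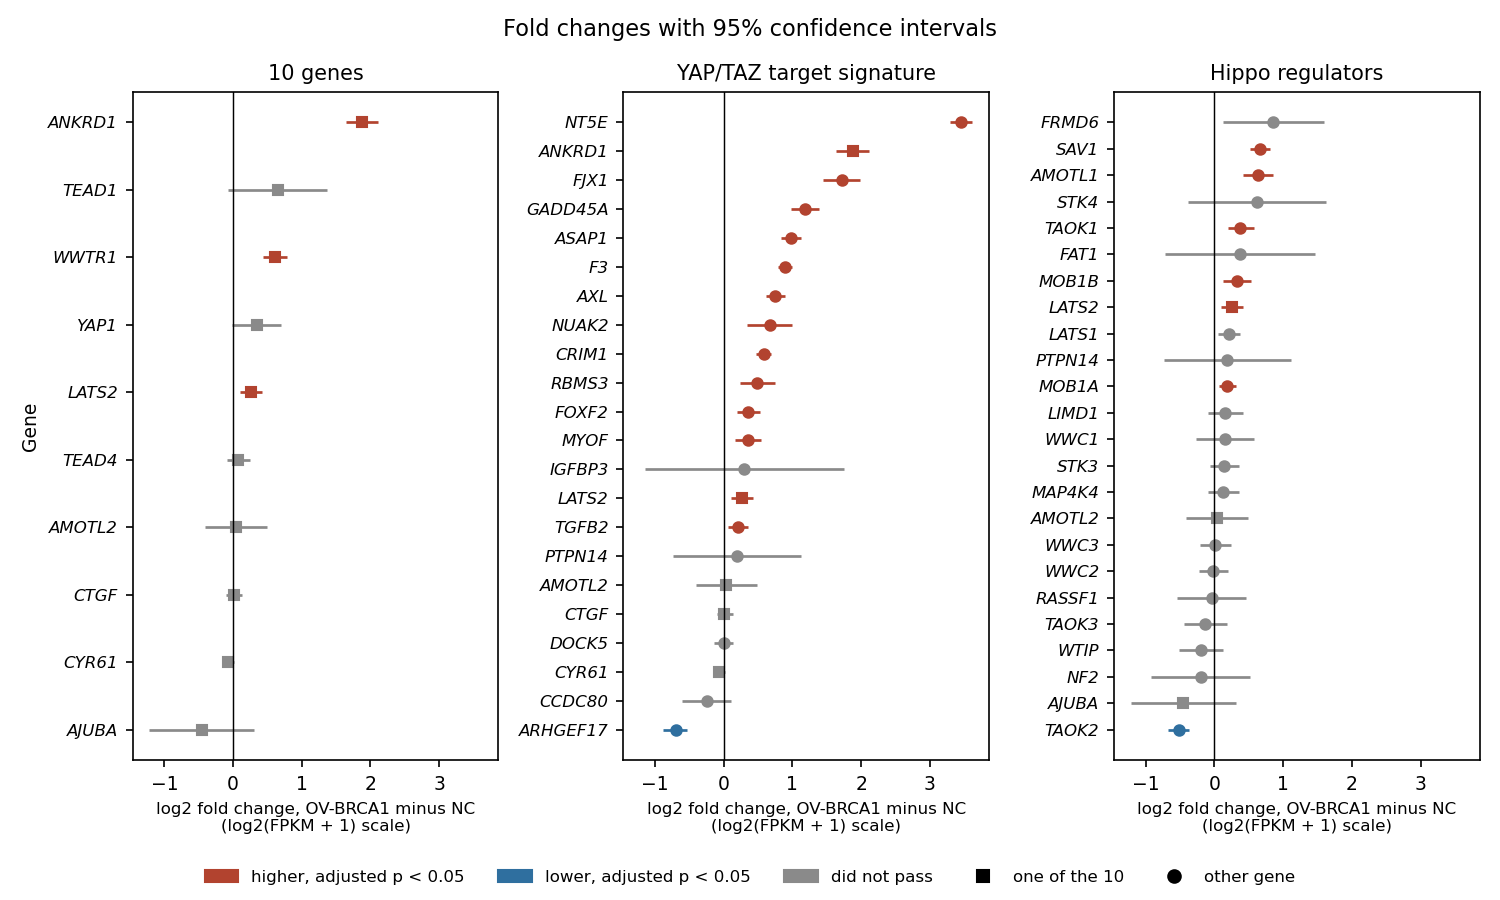
Log2 fold changes (OV-BRCA1 minus NC, log2(FPKM + 1) scale) with 95% confidence intervals for the 10 genes, the YAP/TAZ target signature and the Hippo regulators that were tested, red for higher, blue for lower and grey for genes that did not pass, with squares for the 10 genes. In the signature, 14 of 22 intervals are red while those of CTGF, CYR61 and AMOTL2 include 0, and NT5E at 3.46 lies beyond ANKRD1 at 1.88.

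The 10 genes were set beside a wider signature of 22 YAP/TAZ target genes, to which CTGF, CYR61, ANKRD1, AMOTL2 and LATS2 belong. All 22 were tested, of which 14 rose, 1 fell and 7 did not pass, with a median log2 fold change of 0.35, and 17 had groups that did not overlap. Over all genes tested, 16.4% rose, 18.9% fell and 50.8% had groups that did not overlap. Of the 17 signature genes outside the 10, 12 rose and 1 fell, with a median of 0.49 against -0.04 over all genes. The signature was written with earlier results of these data known, and its counts are a description. NT5E, the ecto-enzyme that makes adenosine from AMP, went from 5.4, 5.89 and 6.4 FPKM in NC to 73.7, 75.0 and 75.4 FPKM in OV-BRCA1 samples (log2 fold change 3.46, SE 0.07, adjusted p = 2.47e-06). F3, tissue factor, went from 97.7, 100 and 96.0 FPKM to 179, 186 and 181 FPKM (0.89, adjusted p = 3.62e-05).

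Further signature genes that rose were FJX1, from 2.79, 2.51 and 1.96 FPKM to 9.79, 10.1 and 10.8 FPKM (log2 fold change 1.72, adjusted p = 0.000134), and GADD45A, a stress-induced gene of growth arrest, from 16.1, 15.8 and 13.4 FPKM to 33.9, 37.4 and 35.0 FPKM (1.18, adjusted p = 0.000207). ASAP1, an activator of Arf GTPases, rose from 12.1, 11.4 and 11.8 FPKM to 23.0, 24.6 and 24.8 FPKM (0.98, adjusted p = 0.000111), a call that its most abundant transcript alone did not give (0.51, adjusted p = 0.383). The gene that fell, ARHGEF17, went from 17.7, 18.7 and 17.6 FPKM to 10.2, 10.2 and 11.6 FPKM (-0.70, adjusted p = 0.000806) and was named after its values were seen. In all, 4 signature genes met the DEG criterion, each of them higher, where 2.89% of all genes were DEGs that rose and 1.1% DEGs that fell, and ANKRD1 was the one among the 10 genes.

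Of the 27 Hippo regulators listed, 24 were tested, of which 6 rose (LATS2 among them), 1 fell and 17 did not pass, with a median log2 fold change of 0.15. Over all genes 35.3% passed, with 16.4% higher and 18.9% lower. Without OV-BRCA1 replicate 3 the count of changed Hippo regulators was 4 (3 higher, 1 lower), and with values weighted by transcript length it was 11 (8 higher, 3 lower). SAV1, the scaffold of the upstream MST kinases, rose from 46.1, 45.8 and 41.4 FPKM to 72.2, 68.3 and 72.3 FPKM (log2 fold change 0.66, adjusted p = 0.000517). AMOTL1, the relative of AMOTL2, rose from 0.893, 0.99 and 0.786 FPKM to 1.82, 1.93 and 2.05 FPKM (0.63, adjusted p = 0.00263), or 1.04 with a pseudocount of 0.1 FPKM (adjusted p = 0.0033), and AMOT did not pass the filter. TAOK1 and TAOK2, kinases upstream of MST, went opposite ways, at 0.38 (adjusted p = 0.0109) and -0.52 (adjusted p = 0.00167). MOB1B, a cofactor of LATS kinases, rose by 0.33 (adjusted p = 0.0252), a call lost without any one of OV-BRCA1 replicates 2 and 3 and NC replicates 1 and 3 (adjusted p = 0.069 to 0.0768), and also with no filter (adjusted p = 0.0532) and with the most abundant transcript (adjusted p = 0.0514), at log2 fold changes of 0.29 to 0.33 in these fits.

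In the CCN family, CYR61 and CTGF were the most abundant of 4 tested genes and neither passed, while NOV rose and WISP2 fell, with a median of -0.03, where 16.4% of all genes rose and 18.9% fell. NOV was 6.52, 7.03 and 6.87 FPKM in NC and 9.73, 9.34 and 9.59 FPKM in OV-BRCA1 samples (log2 fold change 0.44, adjusted p = 0.00341). WISP2 was 1.97, 3.25 and 2.33 FPKM in NC and 0.337, 0.224 and 0.406 FPKM in OV-BRCA1 samples (-1.40, adjusted p = 0.00105), or -2.63 with a pseudocount of 0.1 FPKM. All OV-BRCA1 values of WISP2 are below 0.5 FPKM, so it entered the test through the NC group alone and was not tested when any one NC sample was left out. The antisense gene KCNK15-AS1 overlaps WISP2 and was 6.18, 5.64 and 7.38 FPKM in NC and 0.589, 1.75 and 1.4 FPKM in OV-BRCA1 samples, and without the use of strand, which is not given in the sources used here, the pair cannot be told apart.

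CYR61, CTGF and ANKRD1 are also known to respond to actin-regulated MRTF and SRF, and 15 genes of that program were listed for comparison. Of 12 tested, 3 rose, 4 fell and 5 did not pass, with a median log2 fold change of -0.04, equal to that of all genes, of which 16.4% rose and 18.9% fell. ACTG1, a cytoplasmic actin, rose by 0.50 (adjusted p = 0.000802), or 0.91 in its most abundant transcript alone, and ACTA2, smooth muscle actin, fell from 8.29, 9.92 and 9.01 FPKM to 4.33, 4.92 and 5.49 FPKM (-0.77, adjusted p = 0.00253). The tropomyosins TPM1 (adjusted p = 0.013) and TPM2 (adjusted p = 0.00465) fell by 0.36 and 0.26, and the calponin CNN2 (adjusted p = 0.0102) fell by 0.45, all on the log2 scale. The TPM1 and CNN2 calls were lost with the most abundant transcript (log2 fold changes of -1.60 and -0.31) and with protein-coding transcripts (-0.80 and -0.46). They were also lost with fragment shares, FPKM times transcript length summed per gene without further scaling (-0.25 and -0.29).

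**Figure D4:**
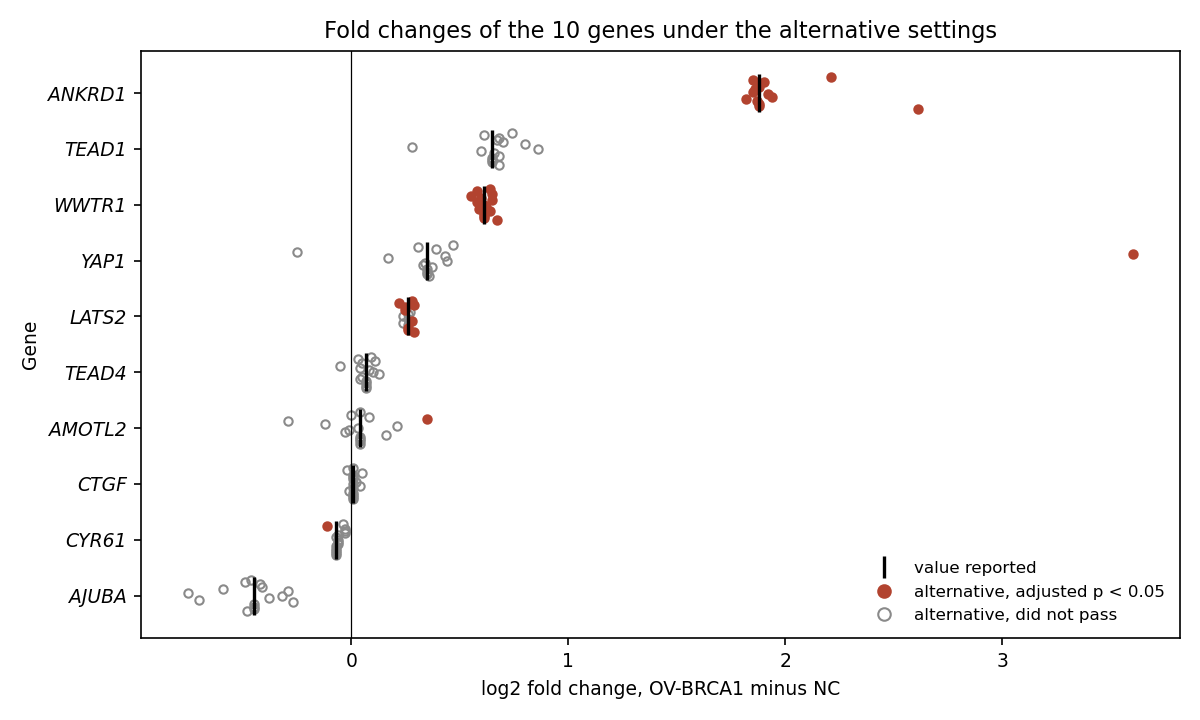
Log2 fold changes of the 10 genes as reported (black ticks) and under each alternative setting (dots, red where the adjusted p was below 0.05, open grey where not). ANKRD1 and WWTR1 stay red and above 0 throughout, LATS2 stays above 0 and is red in 9 of 15 settings, and YAP1 reaches from -0.25 to 3.60 depending on which transcripts are counted.

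ANKRD1 passed in all 14 alternatives in which it was tested, at log2 fold changes of 1.82 to 2.61, and WWTR1 in all 15, at 0.55 to 0.67. LATS2 passed in 9 of 15. TEAD1, TEAD4, CTGF and AJUBA passed in none of 15, and YAP1, AMOTL2 and CYR61 in 1 each.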

How the data were processed

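The values deposited by the authors are FPKM per transcript, with no counts, made from quality-filtered reads for 3 biological replicates of each group. Each sample's file held the same values as its column of the series table (199167 transcripts, 58174 genes). The submitters' processing notes name HISAT2, FastQC and hg38. The annotation, the quantifier and the use of strand are not given in the sources used here. Names and positions came from GENCODE 29, which held 198868 of the transcripts, 98.7% of them at the same position, and 338 genes kept their identifier. FPKM values were summed per gene, and genes with at least 0.5 FPKM in at least 3 samples were tested (16321 genes) with limma (trend) on log2(FPKM + 1), OV-BRCA1 against NC, with Benjamini-Hochberg adjustment over all genes. Changed means an adjusted p below 0.05, and a DEG also has an absolute log2 fold change above 1, as in the study. P-values measure the spread between these samples only. Sums and ratios were tested by exact permutation, which with 3 against 3 cannot go below 0.1. Depth estimates cover counting error only.

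The 10 genes and all lists were chosen with earlier results of these data known. Named were the 10 genes, BRCA1 and family members, up to 5 changed genes of each pathway list with the smallest adjusted p, and, of members with several transcripts, those of at least 10% of their gene. Alternatives were a pseudocount of 0.1, other filters, a block for the replicate number, omission of each sample, the most abundant transcript, protein-coding transcripts and other scalings. Fragment shares (FPKM times transcript length, summed per gene without further scaling) and single transcripts were added after seeing the data. R 4.3.3, limma 3.58.1, Python 3.11.15, numpy 2.4.6, pandas 2.3.3 and matplotlib 3.10.9 were used. Promoter sequences came from RefSeq (GRCh38.p14).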

Additional observations from a re-analysis of the deposited data

How the results depend on the processing

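Same-numbered samples did not deviate together (correlations of -0.024, 0.025 and 0.014), so the numbers were not taken as pairs. With the replicate block, 4595 genes changed against 5764 without it, WWTR1 (adjusted p = 0.0119) and ANKRD1 (adjusted p = 0.0022) still passed and LATS2 (adjusted p = 0.077) and MOB1B (adjusted p = 0.0587) did not. Of 120 alternative counts 100 stayed within 1.5 times the count reported. Of the 10 genes, none met the DEG criterion when at least 1 FPKM was required in all samples, which removed ANKRD1, and 2 did with the most abundant transcript, the second being YAP1 through YAP1-206 alone, which was tested only through the group where it is high. The Hippo regulators gave 11 changed genes with fragment shares. The TEAD and VGLL genes gave 0 with no filter, with at least 1 FPKM in all samples, with the most abundant transcript and with fragment shares, and 2 with protein-coding transcripts. The CCN family gave 1 with at least 1 FPKM in all samples and with the most abundant transcript. The MRTF-SRF targets gave 4 with the most abundant transcript and with protein-coding transcripts. All genes gave 1280 DEGs with a pseudocount of 0.1 against 651. Leaving out 1 sample at a time gave 2 to 3 changed genes of the 10, 4 to 5 Hippo regulators, 0 to 1 TEAD and VGLL genes, 12 to 15 signature genes, 1 to 2 CCN genes, 6 to 7 MRTF-SRF targets and 564 to 663 DEGs over all genes. Signs turned for YAP1 with protein-coding transcripts (-0.25), for TEAD4 (-0.05), AMOTL2 (-0.29) and TEAD2 (-0.70) with the most abundant transcript, for CTGF (-0.02) and GAPDH (-0.01) with the nuclear protein-coding total, and for GAPDH (-0.16) and TEAD3 (0.02) with protein-coding transcripts. Over the fits without 1 sample, CTGF ranged from -0.01 to 0.04, AMOTL2 from -0.12 to 0.21 and TEAD3 from -0.14 to 0.05. Except where the transcripts counted or the fewer samples are the change itself, the cause was not tested. Of the 10 genes, depth limits ANKRD1 most, at about 30 fragments per NC sample.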
